A study of Mus musculus with 4 samples.

Results

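The regions described here are 2093 stretches of open chromatin away from gene ends whose ATAC-seq fold enrichment ranked higher in both KO libraries than in both WT libraries. ATAC-seq maps open DNA by the places where a transposase can insert sequencing adapters. Overlapping peaks of the 4 deposited lists were merged into 97394 regions, of which 26867 held a peak in every library. Of these, 17174 were narrower than 2500 bp and had a midpoint more than 1 kb from both ends of every protein-coding RefSeq gene on GRCm38, and they are called shared distal regions below. The fold enrichment of the strongest peak was turned into a percentile among the 17174 in each library. A region was selected when the lower of its KO percentiles exceeded the higher of its WT percentiles by 10 points or more, and that difference is called its gap. The measured fold values therefore chose the regions, and every value of fold, rank or gap in KO against WT is a description with no test.

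The cells were SMARTA CD4 T cells, which express a transgenic receptor recognising the GP61 peptide. The KO cells lacked TOX, were Ly5.1+ Ly5.2- and were gated as PD1lo, LAG3lo and CD39lo. The WT cells were Ly5.1+ Ly5.2+ and were gated as PD1hi, LAG3hi and CD39hi. Cells of both genotypes entered naive into hosts that had received cytoxan, a lymphocyte-depleting drug, and that bore B16-GP61, a melanoma line carrying the antigen. They were collected from the tumor-draining lymph node (tdLN) 11 days later, with 2 libraries per genotype. Genotype, gate and congenic marker cannot be told apart in this design, and whether the replicates were separate mice or how the Tox allele was made is not given in the sources used here. With 2 libraries against 2 the smallest two-sided exact permutation p is 0.333, so that test could not reach 0.05 for a single region.

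TOX binds DNA through an HMG box and is known for its part in CD4 T cell development and in exhausted T cells, which are kept under chronic antigen and express the inhibitory receptors PD-1 and LAG3 and the ectoenzyme CD39. Distal open regions are often enhancers, short DNA segments that bind transcription factors and act on promoters over long distances. A distal region is commonly assigned to its nearest gene, which need not be the gene it acts on. Here the nearest protein-coding gene within 100 kb was used.

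Although they lay away from the ends of whole genes, 45 of the 2093 regions (2.15%) overlapped an annotated start window, which runs from 250 bases before to 50 after a RefSeq start. Of these, 21 regions held a start of a protein-coding gene, at an inner start of a gene that also has a longer form. Such windows are the places where the sequence of the selected regions can be read here, taken from RefSeq for GRCm38.p6. Those of 5 lymphocyte genes, of Retreg1, whose regions had the largest gaps in this set, and of a noncoding transcript in the T cell receptor alpha locus are shown because they link the ranking to named starts. Zbtb7b encodes ThPOK, the factor that commits thymocytes to the CD4 lineage, and its stretch is chr3:89387622-89387883 on the minus strand. Entpd1 encodes CD39, an enzyme of the cell surface and part of the sort gate, which degrades extracellular ATP and ADP, and its stretch is chr19:40659580-40659819 on the plus strand. Il1r2 encodes the decoy receptor of interleukin-1, at chr1:40085843-40086142 on the plus strand. Tnfrsf9 encodes the costimulatory receptor 4-1BB, at chr4:150927749-150928048 on the plus strand. Satb1 encodes a chromatin organiser of T cells, at chr17:51826539-51826838 on the minus strand. Retreg1 encodes a receptor for autophagy of the endoplasmic reticulum, at chr15:25933302-25933567 on the plus strand. The noncoding Gm30214 is at chr14:53039417-53039716 on the minus strand. Capitals mark matches, on either strand and with overlaps allowed, to core motifs of 8 kinds of factor that are active in lymphocytes, which are spelled out after the sequences.
Zbtb7b: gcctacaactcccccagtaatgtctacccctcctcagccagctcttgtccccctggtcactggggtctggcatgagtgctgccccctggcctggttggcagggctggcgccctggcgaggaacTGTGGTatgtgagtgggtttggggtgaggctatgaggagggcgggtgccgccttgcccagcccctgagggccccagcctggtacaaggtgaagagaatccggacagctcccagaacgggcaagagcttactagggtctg
Entpd1: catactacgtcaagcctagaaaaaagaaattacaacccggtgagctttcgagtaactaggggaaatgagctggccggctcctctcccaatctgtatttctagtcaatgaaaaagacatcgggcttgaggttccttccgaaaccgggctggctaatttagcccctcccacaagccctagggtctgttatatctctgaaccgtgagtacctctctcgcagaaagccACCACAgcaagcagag
Il1r2: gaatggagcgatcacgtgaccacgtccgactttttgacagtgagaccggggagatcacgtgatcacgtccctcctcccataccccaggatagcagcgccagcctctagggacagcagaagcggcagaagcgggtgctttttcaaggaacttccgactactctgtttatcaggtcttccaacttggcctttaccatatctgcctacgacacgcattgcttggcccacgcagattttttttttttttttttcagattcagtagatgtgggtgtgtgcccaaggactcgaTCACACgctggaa
Tnfrsf9: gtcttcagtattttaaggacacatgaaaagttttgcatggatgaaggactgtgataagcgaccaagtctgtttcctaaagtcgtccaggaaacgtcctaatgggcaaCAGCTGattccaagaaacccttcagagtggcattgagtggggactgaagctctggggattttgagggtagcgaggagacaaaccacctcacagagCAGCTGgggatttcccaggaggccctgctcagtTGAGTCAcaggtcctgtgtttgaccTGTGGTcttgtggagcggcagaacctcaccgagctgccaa
Satb1: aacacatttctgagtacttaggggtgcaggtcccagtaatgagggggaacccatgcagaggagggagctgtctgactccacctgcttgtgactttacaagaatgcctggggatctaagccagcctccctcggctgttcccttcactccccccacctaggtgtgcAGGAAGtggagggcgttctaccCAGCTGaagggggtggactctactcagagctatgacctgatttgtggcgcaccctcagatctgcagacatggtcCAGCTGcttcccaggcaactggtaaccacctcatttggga
Retreg1: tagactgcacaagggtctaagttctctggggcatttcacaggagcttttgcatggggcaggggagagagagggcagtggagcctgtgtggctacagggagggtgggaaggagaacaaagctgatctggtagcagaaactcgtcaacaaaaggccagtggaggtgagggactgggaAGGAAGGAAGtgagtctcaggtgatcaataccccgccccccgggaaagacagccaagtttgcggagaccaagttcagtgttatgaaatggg
Gm30214: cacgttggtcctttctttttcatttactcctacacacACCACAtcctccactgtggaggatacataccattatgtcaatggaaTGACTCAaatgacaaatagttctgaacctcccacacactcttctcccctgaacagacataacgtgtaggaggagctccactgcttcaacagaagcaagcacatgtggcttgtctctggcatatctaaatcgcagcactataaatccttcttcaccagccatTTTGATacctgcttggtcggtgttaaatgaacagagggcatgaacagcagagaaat

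The Zbtb7b and Entpd1 stretches each held 1 RUNX match. The Tnfrsf9 window held a RUNX match, an AP-1 match and 2 E-boxes, the Satb1 window an ETS match and 2 E-boxes, and the Gm30214 window a RUNX, a TCF/LEF and an AP-1 match. The RUNX core TGTGGT stood in 13 of the 49 start windows touched by the selected regions (26.5%), against 16.8% of all 32851 windows. For the ETS core AGGAAG it was 21 of 49 (42.9%), against 35.4% of all windows. The T-box core TCACAC stood in 5 of the 49 (10.2%), against 14.5% of all. The NFAT core GGAAAA was found in 11 (22.4%), against 23.4% of all. The AP-1 motif TGANTCA had a share of 12.2%, against 7.81% of all. For the TCF/LEF core TTTGAT the shares were 14.3% and 11.9%. For the GATA core AGATAA they were 14.3% and 11.2%. For the E-box CAGCTG they were 18.4% and 16.3%. These shares are descriptions of letters in the windows, not of bound factors, and the windows of 1 gene can overlap. They count whole windows of 300 bases, including bases outside the selected regions, while the printed stretches are cut at the region edges.

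At Zbtb7b and Retreg1 both KO libraries lay above both WT libraries by fold and by tags. The Zbtb7b region had folds of 3.52 and 5.14 in KO, against 2.62 and 2.21 in WT. Tags are the reads or fragments piled up at a summit, and the highest number in the region was taken for each library. That summit need not belong to the peak with the highest fold. The Zbtb7b region had 64 and 89 tags in KO, against 36 and 42 in WT. Over all shared distal regions the median tags were 33 and 45 in KO, against 46 and 53 in WT, so raw tags are better compared by rank. The Retreg1 region printed above had folds of 5.64 and 7.21 in KO, against 2.84 and 3.03 in WT, and a second Retreg1 region at chr15:25940283-25941198 had 5.07 and 9.41, against 3.52 and 3.96. Both KO ranks lay above both WT ranks in each, which the selection requires.

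The Entpd1, Il1r2 and Tnfrsf9 regions rested more on the fold scale than on tags. At Entpd1, a gene of the sort gate, the fold was 4.09 and 7.62 in KO, against 4.01 and 3.88 in WT, with 24 and 37 tags in KO, against 38 and 28 in WT. The tag ranks at Entpd1 overlapped between genotypes, the summits of its strongest peaks lay up to 405 bp apart, and a region whose peaks were confined to the WT libraries lay 68 bp away. Il1r2 had folds of 4.94 and 8.85 in KO, against 4.60 and 4.20 in WT. It had 31 and 37 tags in KO, against 38 and 46 in WT, and its tag ranks overlapped between genotypes. Tnfrsf9 had folds of 3.74 and 6.74 in KO, against 3.69 and 3.55 in WT. Its tags numbered 33 and 69 in KO, against 44 and 42 in WT. Both KO tag ranks lay above both WT tag ranks there, by 3.18 points.

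Among the selected regions, 4 overlapped a microRNA gene (0.191%), close to the 0.157% of all shared distal regions. The one that holds the whole hairpin of Mir29c had the largest gap of these, 40.3 points. The miR-29 family is known in mouse T cells as a repressor of interferon-gamma and of the factors T-bet and Eomes, which drive the Th1 effector state named in the title of the study. The hairpin lay on the plus strand of the region chr1:195037303-195037839, and the seed of each mature sequence, bases 2 to 8, is in capitals.
miR-29c-3p: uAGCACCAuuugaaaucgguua
miR-29c-5p: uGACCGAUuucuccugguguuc
The Mir29c region had folds of 5.69 and 9.14 in KO, against 4.15 and 3.22 in WT, and 43 and 63 tags in KO, against 29 and 22 in WT. The other microRNA regions were at Mir6361 near Wdr36, with a gap of 32.5 points, at Mir203, a microRNA best known from skin, with 11.1 points, and at Mir7058 in Lat, with 10.4 points.

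The selected regions were 12.2% of the shared distal regions. The same rule turned round selected 1997 regions (11.6%) that ranked higher in WT. Percentiles have the same mean in every library, so similar counts in each direction are partly built into the rule. Of the selected gaps, 1080 lay between 10 and 20 points, 520 between 20 and 30, 284 between 30 and 40, 145 between 40 and 50, 43 between 50 and 60, and 21 above that. The median gap was 19.4 points and the largest 81.4. The regions just inside the limit lay near Otulinl (10.0006), in Nsmaf (10.0093) and in the noncoding gene Firre (10.0151). Those just outside lay in Dnaaf5 (9.99185), Akain1 (9.9802) and St3gal1 (9.97729).

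**Figure D1:**
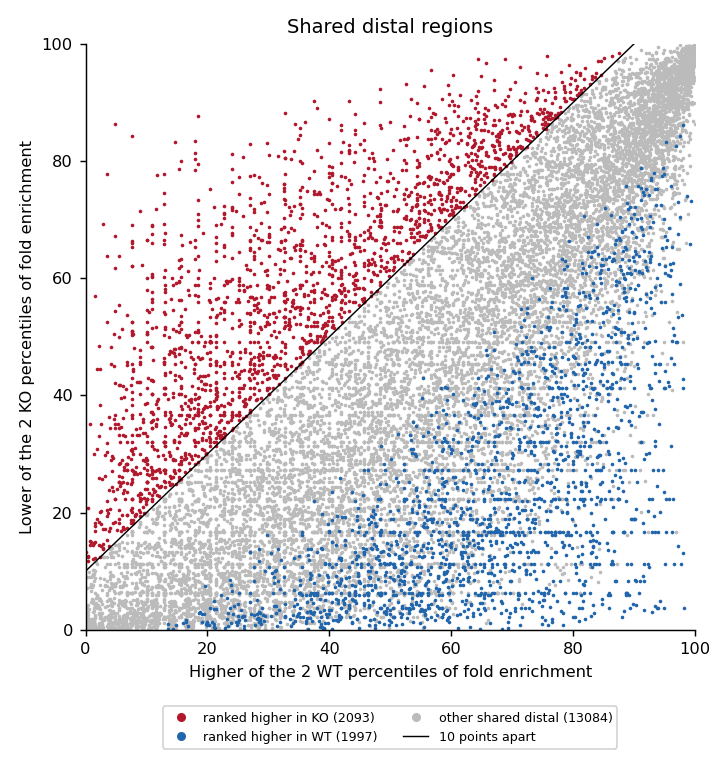
Each point is 1 of the 17174 shared distal regions, with the lower of its KO percentiles of fold enrichment on the vertical axis and the higher of its WT percentiles on the horizontal axis. The 2093 regions ranked higher in KO are the red points on or above the line 10 points over equality, and the 1997 ranked higher in WT, chosen by the opposite comparison, are blue.

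Fold levels differed between libraries, which is why ranks were used. The selected regions had median folds of 5.10 and 8.79 in the KO libraries, against 4.02 and 4.11 in the WT libraries. Over all shared distal regions the medians were 4.27 and 7.16 in KO, against 5.48 and 5.63 in WT. The selected regions were therefore of middling strength: their median percentiles were 64.5 and 65.2 in KO, against 25.02 and 25.9 in WT. A fold of KO-1 set directly against a WT fold understates the separation, since KO-1 had the lowest median fold of the 4 libraries. A fold of KO-2 overstates it, since KO-2 had the highest.

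**Figure D2:**
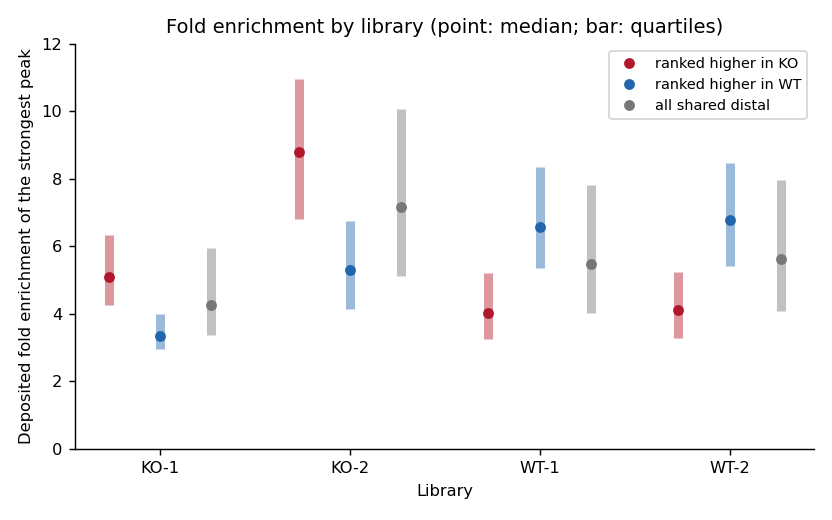
Deposited fold enrichment of the strongest peak in each library, as the median (point) and quartiles (bar), for regions ranked higher in KO, regions ranked higher in WT and all shared distal regions. The regions ranked higher in KO had medians of 5.10 and 8.79 in the KO libraries, above all shared distal regions there, and of 4.02 and 4.11 in the WT libraries, below them.

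The deposited fold divides tags by a local background, so it can move with the background as well as with the signal. The deposited fold and p-value of each peak together gave the tags at the summit as whole numbers within 0.01 for 100% of peaks. Ranking the tags by the same rule selected 2393 regions (13.9%) as higher in KO and 2179 (12.7%) as higher in WT. Of the 2093 regions, 1582 (75.6%) were also selected by tags. In 2005 both KO tag ranks lay above both WT tag ranks, in 77 they overlapped, and in 11 they lay below. Among all 17174 shared distal regions those counts were 4981, 7147 and 5046. Tags enter the fold that chose the regions, so agreement between the scales is partly built in. The local background at the selected regions, relative to the lowest of the library, had medians of 1.21 and 1.49 in KO, against 1.05 and 1.05 in WT. Over all shared distal regions those medians were 1.24 and 1.55 in KO, against 1.28 and 1.32 in WT. The share of the background in the ranking was not tested beyond these values.

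The libraries also differed in signs of other cells, which bears on every comparison of ranks below. All 24 genes on a list of T cell surface and receptor genes, Cd3e and Cd4 among them, had a peak in each library. Of 16 B cell genes, 8 and 13 had a peak in the KO libraries, against all 16 in both WT libraries. Ms4a1 and Fcer2a, which mark B cells, had no peak in either KO library and at least 1 in each WT library. Regions at the B cell genes held a peak in 28 and 40 cases in KO, against 139 and 161 in WT, and at 16 myeloid genes in 39 and 57 cases in KO, against 88 and 101 in WT. Of 11 melanocyte genes, 5 and 7 had a peak in KO, against 3 and 6 in WT. The part of other cells in the ranks was not tested, and in bulk samples fewer cells of a type and less accessibility per cell cannot be told apart.

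By position, the selected regions lay farther from gene ends than the other shared distal regions. The midpoint was a median of 21493 bp from the nearest gene end, against 13688 bp for regions ranked higher in WT and 15273 bp for all shared distal regions. It was inside a protein-coding gene in 1146 regions (54.8%), against 55.8% of those ranked higher in WT and 57.1% of all. A further 254 (12.1%) lay outside genes within 10 kb of one, and 533 (25.5%) from 10 to 100 kb away. The nearest gene was more than 100 kb away for 160 regions (7.64%), against 4.16% of regions ranked higher in WT and 4.97% of all. Start windows were scarcer than in other regions, at 2.15%, against 5.91% and 9.65%. Among regions with a mean percentile from 31.3 to 60.8, the middle of the selected regions, start windows were in 2.39%, against 5.40% of regions that ranked higher in neither genotype. Widths were similar, with a median of 663 bp, against 674 and 689 bp. Whether exons, introns or UTRs were covered was not analysed here, because the gene table gives outer coordinates only.

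Across chromosomes the selected share of shared distal regions ran from 9.12% on X (29 regions) and 9.63% on chromosome 18 to 15.3% on chromosome 12 and 16.4% on chromosome 15. KO-only regions, which had peaks in KO-1 and KO-2 but not in WT, and were 1.78% of all regions, stood within 50 kb of 575 selected regions (27.5%), against 18.5% of those ranked higher in WT and 21.5% of all shared distal regions. WT-only regions, the reverse class, were 8.8% of all regions. One stood within 50 kb of 50.3% of the selected regions, against 59.99% and 53.4%.

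The nearest other shared distal region, whose values the choice of a region did not use, ran in different directions by distance. For each neighbour the mean KO percentile minus the mean WT percentile was taken. Within 5 kb of a selected region its median was -5.68 points over 532 neighbours, against -0.57 around all shared distal regions. From 5 to 20 kb it was 3.43 points over 841 neighbours, against 0.117, and from 20 to 50 kb it was 1.97, against -0.833. On the tag scale the neighbours within 5 kb had a median of 1.11 points, against 1.01, and those from 5 to 20 kb 4.12, against 0.189. The negative value next to a selected region was thus present on the fold scale and not on the tag scale, and the part of the local background in it was not tested. Neighbours come from the same libraries and can be selected regions themselves, as 7.33% were within 5 kb and 17.95% from 5 to 20 kb. Around all shared distal regions those shares were 11.4% and 13.2%.

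**Figure D3:**
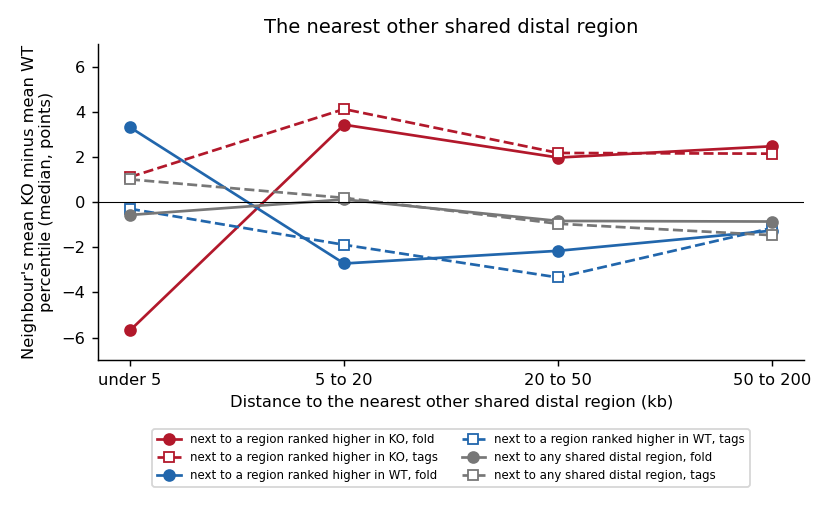
Median over neighbours of the mean KO minus the mean WT percentile (points) of the nearest other shared distal region, by its distance in kb, around regions ranked higher in KO, regions ranked higher in WT and any shared distal region, by fold (filled) and by tags (open). Under 5 kb the fold value was -5.68 next to regions ranked higher in KO and the tag value 1.11, while from 5 to 20 kb they were 3.43 and 4.12.

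Most selected regions stood alone: 1435 had no other selected region within 50 kb, while 658 (31.4%) did. That share was not taken for other classes of region, so it does not show whether selected regions group more than others. The groups below are descriptions. There were 74 groups of 3 or more within such distances, and the largest held 6. At Msi2, which encodes an RNA-binding protein of blood stem cells, 6 of the 7 shared distal regions along 124 kb were selected. Around Gfod1 and Tbc1d7 it was 6 of 10, while 2 of the others ranked higher in WT. At Btg1, an antiproliferative gene linked to T cell quiescence, it was 5 of 6, at Prag1, a pseudokinase gene, 5 of 7, and at Trib2, another pseudokinase gene, 5 of 7. At Lbh and around Tns4, Ccr7 and Smarce1 it was 5 of 13, with 1 ranked higher in WT in each. Groups of 4 of 5 lay at Plcl1 and across Slamf1 and Cd84, whose products are receptors of the SLAM family on lymphocytes. All 3 shared distal regions along 56.7 kb at Il1r2 and all 3 along 27.3 kb at Rtkn2 were selected.

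The largest gaps were reached at genes of many kinds. The first was in the T cell receptor alpha locus, on the V segment Trav14d-3-dv8 at chr14:53078458-53079112. Its folds were 8.02 and 12.3 in KO, against 2.60 and 2.83 in WT, and its tags 48 and 65 in KO, against 16 and 19 in WT. V segments are joined to J segments during receptor assembly, and many in this locus have near-identical copies, so reads could be shared among copies. How such reads were treated is not given in the sources used here. The cells also express a transgenic receptor, and the peak lists cannot tell reads of its transgene from reads of the receptor loci.

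Of 18 shared distal regions in the Tcra locus, 6 were selected and none ranked higher in WT. Another of the 6, at chr14:53039365-53039923, held the start of Gm30214 printed above, and its folds were 10.6 and 17.4 in KO, against 5.81 and 7.21 in WT. The Tcrb locus had 2 selected of 12, with gaps of 50.5 points on the V segment Trbv23 and 56.0 points at chr6:41504741-41505730, and none ranked higher in WT. The 3 regions of the Tcrg locus held none. Over all V segments, 4 selected regions overlapped one (0.191%), against 0.116% of all shared distal regions.

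The second largest gap, 76.7 points, lay 14829 bp from Fam91a1, where the folds were 7.04 and 13.05 in KO, against 3.06 and 2.83 in WT. Inside Zmym6 the gap was 74.3 points and the folds were 6.22 and 13.4 in KO, against 2.75 and 2.69 in WT. Cep128, a centriole gene, held a gap of 69.2 points. A region inside Camk2d, which encodes a calcium-dependent kinase, had a gap of 68.6 points but its tag gap was 32.2 points, with 58 and 57 tags in KO, against 33 and 31 in WT. Cdk6, a cell cycle kinase gene, had 102 and 147 tags in KO, against 46 and 48 in WT, the highest tag numbers among the 20 largest gaps. Ikbkg, on X, encodes the regulatory subunit of the kinase that activates NF-kB, and its region had folds of 7.04 and 11.6 in KO, against 3.36 and 3.67 in WT. Others of the 20 were inside or near Itga9, an integrin gene, Sptb, Pcdh7, Akap8l, 1700012B07Rik, Gadd45g, Plcl1, Lclat1, Hmga2, Dusp10, which encodes a phosphatase of MAP kinases, 2700097O09Rik, LOC108168726 and Ptpn3, a tyrosine phosphatase gene. Their gaps ran from 60.4 to 66.0 points, and by tags every one of the 20 kept both KO ranks above both WT ranks, with tag gaps of at least 32.2 points.

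**Figure D4:**
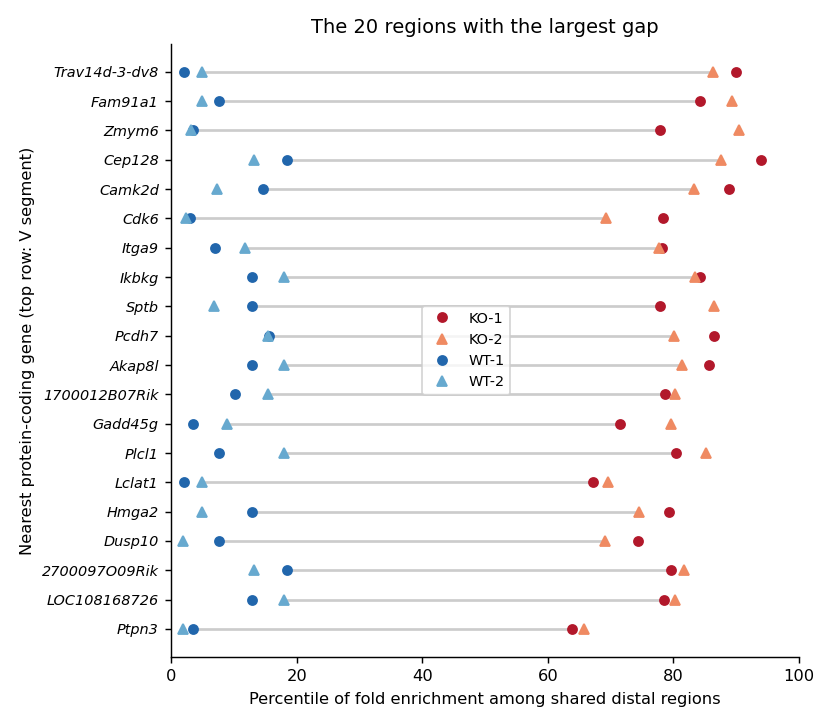
Percentile of fold enrichment in the KO (red) and WT (blue) libraries for the 20 regions with the largest gap, named by the nearest protein-coding gene or, in the top row, the V segment, and a grey line across each gap. The gaps ran from 81.4 points at Trav14d-3-dv8 to 60.4 points at Ptpn3.

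Counted by gene, 1933 selected regions were assigned and 160 were not. They fell to 1509 of the 7134 genes with a shared distal region: 1220 genes had 1, 201 had 2 and 88 had 3 or more. At 404 of the genes a region ranked higher in WT as well, and at 43 of the 88 none did. Genes with many regions have more chances, so the counts below are given with the number of shared distal regions. The ends of these genes were compared as a set, and single ends can differ more than the median. At the 34 genes with 3 or more selected regions, none ranked higher in WT and a shared region at a gene end, that end had a median KO minus WT difference of 0.241 points, and 17 were above 0. The quartiles there were -3.73 and 5.72 points. Genes with neither kind had a median of 0.109 points, with quartiles of -4.55 and 4.64 points.

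The highest count, 6, was reached at Bach2, Foxp1, Arid5b and Msi2, where Msi2 had 14 shared distal regions. Bach2, a repressor that preserves naive and memory T cells, had 6 of 25 selected and 1 ranked higher in WT. Its widest gap, 49.4 points, was inside the gene at chr4:32287698-32288532, with folds of 6.72 and 11.1 in KO, against 4.08 and 4.48 in WT. Foxp1, a guardian of T cell quiescence, had 6 of 26 and 3 ranked higher in WT, and the region inside it at chr6:99420449-99421103 had folds of 8.92 and 17.0 in KO, against 5.66 and 4.66 in WT. Arid5b, a DNA-binding cofactor of lymphoid cells, had 6 of 19 and 2 ranked higher in WT, and Msi2 likewise had 2 ranked higher in WT. Lbh had 5 of 14 and Nsmce2, a SUMO ligase gene, 5 of 13, each with 1 ranked higher in WT. St6gal1, a sialyltransferase gene, had 5 of 12, Lrch1 5 of 8 and Gfod1 5 of 10, each with 2 ranked higher in WT. Wwox had 5 of 24 and 3 ranked higher in WT, and by tags 3 of its regions ranked higher in KO and 4 in WT. Btg1 had 5 of 10 and none ranked higher in WT.

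Tox, the gene whose product the KO cells lack, had 5 of 21 selected and none ranked higher in WT. At chr4:6674862-6675812, outside the gene, the folds were 9.34 and 12.3 in KO, against 4.13 and 4.69 in WT. Inside it, at chr4:6809212-6809758, they were 5.71 and 7.57 in KO, against 2.60 and 2.83 in WT. By tags, 15 of the 21 ranked higher in KO and 1 in WT. That one, at chr4:6924465-6925241 and not selected, had 34 and 55 tags in KO, against 154 and 135 in WT. Tox with 1 Mb on either side held 15 selected of 39 (38.5%) and 2 ranked higher in WT, and with 10 Mb 22 of 112 (19.6%) and 13. The same spans around Ptprc, the congenic marker gene, held 2 of 37 (5.41%) and 4 ranked higher in WT, and 23 of 179 (12.8%) and 23.

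The other genes of the sort gate had few shared distal regions, and their counts stand beside a background of 12.2% selected. Lag3, which encodes an inhibitory receptor, had 1 of 2 selected, at chr6:124901729-124902441. Its folds were 5.33 and 6.83 in KO, against 3.61 and 3.13 in WT, with 92 and 116 tags in KO, against 58 and 56 in WT. Pdcd1, which encodes PD-1, had none of 5, and Entpd1 had 1 of 6, the region printed above. By tags, the 2 Lag3 regions ranked higher in KO, and none of the 5 Pdcd1 regions ranked higher in either genotype. Of the 6 Entpd1 regions, none ranked higher in KO by tags and 3 ranked higher in WT.

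Of the 133 shared distal regions at 24 inhibitory receptor and exhaustion genes, 24 were selected (18.05%) and 9 ranked higher in WT, and without Tox it was 19 of 112 (17.0%). Maf, which encodes a factor driving interleukin-10 and follicular genes, had 2 of 5 with none higher in WT, and a region 84805 bp from it had folds of 5.52 and 13.3 in KO, against 3.82 and 3.96 in WT. Btla, a coinhibitory receptor gene, had 2 of 3, with folds of 4.47 and 9.13 in KO, against 2.75 and 2.97 in WT, at chr16:45286102-45286914. Irf4, a factor induced by receptor signals, had 1 of 3 and 1 ranked higher in WT. Tox2, a relative of Tox, had 3 of 8.

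The list with the highest selected share was that of follicular helper genes, with 21 of 76 regions (27.6%), against 7 ranked higher in WT. Follicular helper cells are CD4 T cells that help B cells, and the list shares Maf, Btla and Tox2 with the list of inhibitory receptors. St6gal1 gave 5 of the 21 and Icos, which encodes a costimulatory receptor, 1 of its 9, with folds of 6.45 and 6.52 in KO, against 3.06 and 2.97 in WT. By tags, 29 of the 76 ranked higher in KO and 7 in WT. Its median KO minus WT difference was 8.66 points, against -0.477 over all shared distal regions.

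Of 200 regions at naive, memory and quiescence genes, 36 were selected (18%) and 23 ranked higher in WT (11.5%). Bach2 and Foxp1 gave 12 of these. Myb, a factor of stem-like T cells, had 2 of 11, and the region at chr10:21187619-21188223 had 53 and 79 tags in KO, against 32 and 37 in WT. Id3, which encodes an inhibitor of E proteins, had 1 of 4, with folds of 6.19 and 8.94 in KO, against 4.13 and 3.52 in WT. S1pr1, which encodes the receptor for exit from lymph nodes, had 2 of 16 and as many ranked higher in WT.

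Of 83 regions at Th1 and effector genes, 14 were selected (16.9%) and 7 ranked higher in WT, with a median difference of 0.0524 points. Prdm1, the gene of the repressor Blimp-1, had 1 of 5, with folds of 5.92 and 9.78 in KO, against 4.43 and 3.82 in WT. Il2, which encodes a T cell growth factor, had 2 of 3, Fasl, a death ligand gene, 2 of 7, and Ifng 1 of 9. Of 62 regions at regulatory T cell genes, 11 were selected (17.7%) and 3 ranked higher in WT. Il10, an anti-inflammatory cytokine gene, had 2 of 8, with folds of 4.38 and 8.89 in KO, against 2.93 and 2.72 in WT, at chr1:130999411-130999977. Nrp1, which encodes neuropilin-1, had 4 of 14. Of 28 regions at Th17 genes, 7 were selected (25%) and 3 ranked higher in WT (10.7%), while by tags it was 5 (17.9%) and 2. Among the selected was the only one at Il17a, with folds of 7.31 and 12.5 in KO, against 6.57 and 4.66 in WT. Of 23 at Th2 genes, 2 were selected (8.70%) and 3 ranked higher in WT (13.04%). The selected were the single regions of Rad50, which neighbours the Th2 cytokine genes, and Il9.

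Of 100 regions at T cell surface and receptor genes, 14 were selected (14%) and 3 ranked higher in WT (3%), against 12.2% and 11.6% of all shared distal regions. By tags 36 ranked higher in KO (36%) and 4 in WT (4%), against 13.9% and 12.7% of all. Cd28, which encodes the main costimulatory receptor, had 2 of 6, and the region at chr1:60822822-60823469 had folds of 8.20 and 11.7 in KO, against 5.96 and 4.81 in WT. Lcp2, which encodes the adaptor SLP-76, had 3 of 8 and Skap1 2 of 8. Of 165 regions at T cell receptor signalling and anergy genes, 14 were selected (8.48%) and 19 ranked higher in WT, a share below the background of 12.2%. Plcg1, a phospholipase gene, held the widest gap of that list, 51.1 points, with 49 and 69 tags in KO, against 25 and 31 in WT. Egr2, which encodes a factor of anergic T cells, had a gap of 42.1 points, with a WT-only region 165 bp away.

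Cytokine receptor and STAT genes had 15 of 97 selected (15.5%) and 9 ranked higher in WT, and chemokine receptor and homing genes 9 of 68 (13.2%) and 10. Stat3, on the list of Th17 genes, which encodes the signal carrier of interleukin-6 and interleukin-21, had 1 of 4 and 1 ranked higher in WT, with a median KO minus WT difference of -11.2 points over the 4. Its selected region had folds of 5.65 and 12.2 in KO, against 3.50 and 4.03 in WT. Il10ra had 1 of 1 and Il21r 2 of 6. Ccr7, which encodes the receptor for entry into lymph nodes, had 2 of 8. At the Ccr7 region chr11:99170576-99171420 the scales disagreed: the folds were 6.18 and 11.4 in KO, against 4.98 and 4.92 in WT, but the tags were 37 and 50 in KO, against 79 and 101 in WT.

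Lists of other cells held few shared distal regions to set against the background of 12.2%. Of 15 shared distal regions at B cell genes 1 was selected (6.67%), in Pou2f2, and 5 ranked higher in WT. By tags 1 of the 15 ranked higher in KO (6.67%) and 7 in WT (46.7%), against 13.9% and 12.7% of all shared distal regions. Of 25 at myeloid and dendritic cell genes 2 were selected (8%), inside Irf8, which lymphocytes also use, and near Itgam, and 3 ranked higher in WT. None of 7 at natural killer and CD8 T cell genes and none of 3 at melanocyte genes was selected, numbers too small to differ from the background of 12.2%. Of the genes named above from these lists, Icos, Myb, Il10, Nrp1, Il21r, Ccr7, Plcg1 and Irf8 each also had 1 region ranked higher in WT. Satb1 and Pou2f2 each had 2. By fold, the selected shares of the chemokine receptor list and of the T cell surface list were near the background of 12.2%. By tags, 36% of the T cell surface regions ranked higher in KO, against 13.9% of all shared distal regions. Median KO minus WT differences, against -0.477 points over all shared distal regions, were 5.99 points for the inhibitory receptor list, 4.43 for the T cell surface list, 3.65 for the naive list, 3.43 for the regulatory T cell list and 2.96 for the Th17 list. They were 1.74 for the cytokine receptor list, 0.897 for the chemokine receptor list and 0.285 for the receptor signalling list. The Th2, myeloid and B cell lists had medians of -5.18, -8.66 and -9.55 points. The shares of single lists rest on 3 to 200 regions of a few genes each, and none was tested.

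**Figure D5:**
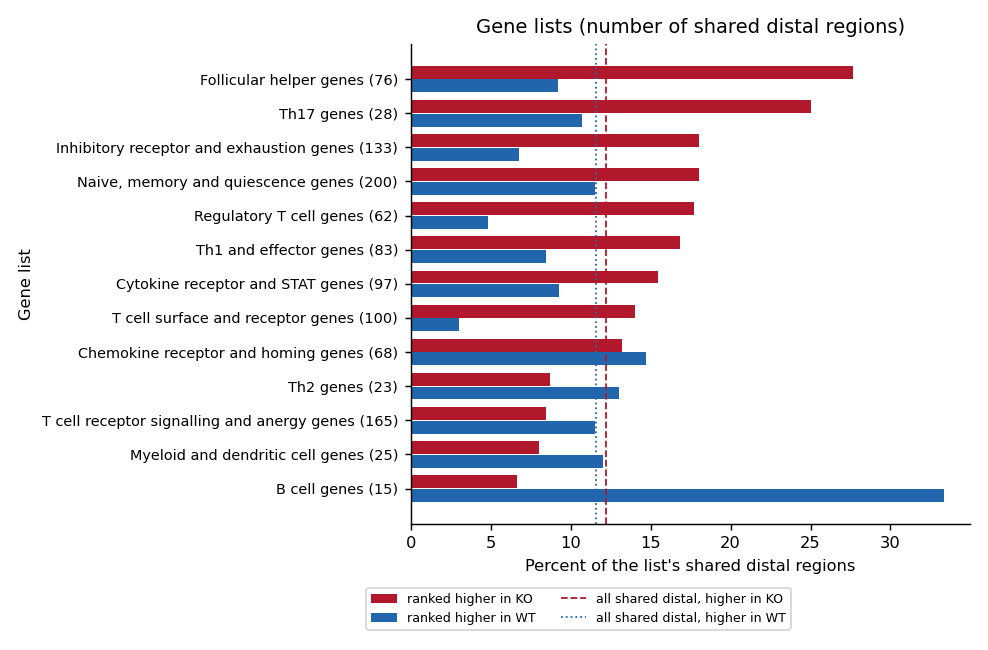
Percent of the shared distal regions at each gene list that ranked higher in KO (upper bar) or in WT (lower bar), for lists with at least 15 such regions (number in brackets). The lines mark 12.2% and 11.6% of all shared distal regions, and the KO bar ran from 27.6% at follicular helper genes to 6.67% at B cell genes.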

How the data were processed

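Peak lists of 2 KO and 2 WT libraries were analysed, 1 list per library. The submitters' processing notes name MACS2, BWA, Picard, SAMtools and deepTools, and mm10 (GRCm38) as the build. Versions, settings, read shifts and filters were not given in those notes. Each list had 10 columns. Its deposited fold enrichment is a ratio of signal to local background. The deposited −log10 p and −log10 q rank a peak against that background, and the deposited score was not used. These values are the authors' own and described or ranked peaks within a list only. Read totals are not given, so depth is unknown. The lists held 43078 and 61773 peaks in KO and 56852 and 61489 in WT, and each −log10 q was above 2.

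Peaks overlapping by at least 1 bp were merged, and genes came from a RefSeq table on GRCm38.p6. All positions are 1-based. Tags were solved from fold and −log10 p as a Poisson tail with a pseudocount of 1. No test was run on the selected regions, since they were selected on these values. The selected regions, the 15 gene lists (289 names) and the comparisons were chosen with earlier results of these data known. Named are the 20 largest gaps, the 12 genes with most selected regions, up to 4 genes per list by gap, Tox, Pdcd1, Lag3, Entpd1 and Ptprc, and the regions next to the limit. The genes with printed starts, microRNAs, receptor loci and groups of neighbours, and Tox2, Ifng and the marker genes, were named after their values were seen. The selection rule was tested on simulated data. Alternatives were other columns, gaps, widths, overlaps and distances, leaving out each library, and a replicate block. Python 3.11.15, pandas 2.3.3, numpy 2.4.6 and scipy 1.17.1 were used.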

Additional observations from a re-analysis of the deposited data

How the results depend on the processing

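Several settings left the number of regions ranked higher in KO within 1.5 times of 2093: −log10 q in place of fold (2416), scaled folds (1525), ranks among all shared regions (2042), no width limit (2094), widths under 1000 bp (1831), over 5 kb from gene ends (1718), overlap of 100 bp (2094), 1 peak per library (1605) and autosomes (2061). So did tags (2393) and summits within 150 bp (1716), both chosen after seeing the data. Similar counts need not be the same regions. Of the 2093, 69.7% were kept by scaled folds, 76.1% by 1 peak per library, 89.3% by −log10 q and 75.6% by tags. The 2093 made up 77.4% of the regions selected by −log10 q and 66.1% of those by tags. A gap of 20 points left 1013 in KO and 940 in WT, by construction, and scaled folds left 1178 in WT. Leaving out any 1 of the 4 libraries, which relaxes the rule, gave 3364 to 4550 regions in KO, 3334 to 4479 in WT, 54.5% to 56.9% inside genes and 35.2% to 71.1% with a KO-only region within 50 kb. Leaving out a library also changes which regions count as KO-only, and the share around all shared distal regions was not taken there. With all 4 libraries, 30.3% of regions selected by −log10 q and 33.6% by tags had a KO-only region within 50 kb, against 27.5% by fold. Around all shared distal regions it was 21.5%. The replicate block, in which each KO rank exceeded the same-numbered WT rank by 10 points, gave 2643 and 2577 regions, 55.8% inside genes and 27.3% near a KO-only region. Deviations of same-numbered libraries correlated at -0.0371, so the numbers are not taken as pairs. The 20 largest gaps stayed between 32.2 and 88.0 points over 8 settings. Unknown depth, 2 libraries per genotype and a local background in the fold limit these ranks.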
